A study of Mus musculus with 4 samples.

Results

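*Arf1*, *Arf2*, *Arf3*, *Arf4*, *Arf5* and *Arf6* encode the ADP-ribosylation factors (ARFs), a family of small GTPases of membrane traffic. The 6 genes were taken by symbol from the 21926 genes of single-cell RNA-seq counts of mouse thymus, and all 6 were found. They were chosen because *Arf6* had already been seen to stand apart between these 2 libraries. The ratios of *Arf6* between the genotypes are therefore given as a description and not as a test. One library came from a WT mouse, which carried Eif4g2 flox/flox and no Cre. The other came from an *Eif4g2* cKO mouse, CD4-Cre with Eif4g2 flox/flox, so that both mice carried the floxed alleles of *Eif4g2*, a gene of a non-canonical translation initiation factor. Both mice were 5 weeks old and labelled female, and both libraries were labelled as the same batch of unsorted thymus cells. The Cre transgene is driven by *Cd4* regulatory elements and was carried only by the cKO mouse, and recombination was not measured in any class of cells here. With 1 library per genotype there was no replicate and no test. All intervals below are exact 95% intervals and cover counting error only. The deletion, the Cre transgene, the mouse and the library cannot be told apart.

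ARF proteins cycle between a GDP-bound form and a GTP-bound form that sits on membranes. Guanine nucleotide exchange factors load them with GTP, GTPase activating proteins switch them off, and coat proteins, adaptors and lipid kinases are recruited by the GTP-bound form. *Arf1*, *Arf2* and *Arf3* (class I) and *Arf4* and *Arf5* (class II) act mainly at the Golgi and in early secretory traffic. *Arf6* (class III) acts at the plasma membrane and on endosomes, in the recycling of surface receptors and in remodelling of cortical actin. Thymocytes pass from CD4 CD8 double negative (DN) to double positive (DP) cells, and after positive selection to mature single positive (SP) cells.

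The 6 transcripts are close relatives. The first GTP-binding loop of the coding sequence is shown because it is the stretch that the family shares and because its differences, mostly at the third base of a codon, set the members apart. It covers coding bases 58 to 81 of *Arf6* and 70 to 93 of the other members in GENCODE M21 transcripts of GRCm38. Capitals mark the 9 of 24 positions that are not identical in all 6 genes.
Arf1: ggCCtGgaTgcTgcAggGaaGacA
Arf2: ggCTtAgaTgcAgcTggCaaAacG
Arf3: ggCCtGgaTgcTgcCggGaaGacC
Arf4: ggATtGgaTgcTgcTggCaaGacG
Arf5: ggCTtGgaTgcGgcTggCaaGacT
Arf6: ggCCtGgaCgcAgcCggCaaGacA
The loop of *Arf6* differed from that of *Arf1* or *Arf3* at 4 positions, from *Arf5* at 5 and from *Arf2* or *Arf4* at 6. Over the whole coding sequence *Arf6* was 61.4% to 68.5% identical to the other members, and the closest pair was *Arf1* and *Arf3* with 83.6%. Reads that fall in the coding part of *Arf1*, *Arf2* and *Arf3* could be split between these genes by the counting. Whether this happened was not checked. The method reads a tag near the 3′ end of each transcript and marks each molecule with a unique molecular identifier (UMI), so levels were not divided by length and are not ranked between genes.

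The members lie apart in the genome. *Arf6* (ENSMUSG00000044147.8) is at chr12:69372150-69373783 on the plus strand of GRCm38 and has 2 exons over 1634 bases. The other members have 5 or 6 exons. They lie on chromosome 11 (*Arf1*, 59211412 to 59228270, minus strand, and *Arf2*, 103966739 to 103985337, plus strand) and on chromosome 15 (*Arf3*, 98736634 to 98763214, minus strand). *Arf4* lies on chromosome 14 (26638074 to 26665084, plus strand) and *Arf5* on chromosome 6 (28423560 to 28426602, plus strand). *Arf4* overlaps *Pde12* and *Arf5* overlaps *Gcc1*, each on the opposite strand and each counted in the files. *Arf6* overlaps only Gm9887, on the minus strand, which is not among the genes of the files. Whether the counting used strand is not given in the sources used here. RefSeq ends *Arf6* at base 69375980, 2197 bases past the GENCODE end, a difference that can matter for a 3′ tag. The annotation that the authors counted with is not given either. 97.9% of the gene identifiers of the files match GENCODE M21 with the same version.

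The WT library held 18355050 UMIs in 6014 barcodes and the *Eif4g2* cKO library 18056277 UMIs in 4335 barcodes. Clusters were named from markers. The DN-like class, with *Il2ra* at 378 and 321 UMIs per 1000000 UMIs of the class (CPM) against 8.63 and 6.44 CPM in DP-like cells, held 98 WT and 120 cKO cells, the DP-like class 3360 and 2090, the early post-selection-like class 873 and 571, and the mature SP-like class 512 and 195. The 3 clusters of cycling cells that matched no list stayed unnamed. They are called here by their leading genes, histone genes (cluster 4; 536 and 523 cells), replication genes (cluster 5; 221 and 665 cells) and mitosis genes (cluster 7; 247 and 127 cells). Most WT DP-like cells lay in clusters 0 and 3 (2064 and 1131 cells), and most cKO DP-like cells in cluster 1 (1895 cells). Cell names in the files are running numbers within a library, and 1055 of them occurred in both, so they cannot show shared cells. The libraries stand apart in the Y-linked *Eif2s3y*, *Uty* and *Kdm5d*, with 2542 UMIs in the WT library and 1 in the cKO library. This goes against the label of 1 of the mice, and WT and cKO are used below as the labels give them. If the mice differed in sex, that difference cannot be told apart from the genotype in any ratio below. *Ddx3y*, a further Y-linked gene, had 1427 and 510 UMIs, and the source of its UMIs in the cKO library was not determined. *Eif4g2* itself had 4089 and 4941 UMIs. Where its 3′ tag lies relative to the deleted part was not determined, so this count does not check the deletion.

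*Arf6* was higher in *Eif4g2* cKO than in WT in every class of T cells, by 3.06-fold or more in the 4 named thymocyte stages and the 3 cycling clusters. In these stages and clusters *Arf1*, *Arf3*, *Arf4* and *Arf5* differed far less. *Arf2* had too few UMIs in several of them for a firm value. In DP-like cells, the largest class, *Arf6* had 267 UMIs in WT and 704 in cKO. These were 50.1 (44.2 to 56.5) and 206 (191 to 222) CPM. The 2 intervals do not overlap. The ratio was 4.12-fold, 2.04 (1.84 to 2.25) on the log2 scale. Among 8868 genes with at least 50 UMIs in DP-like cells, 8.34% were higher by over 0.5 on the log2 scale and 29.8% lower. *Arf6* had the highest ratio of all, and it was the only 1 of the 6 members past 0.5, but with ratios centred on the median of all genes *Arf1* (0.57) and *Arf5* (0.55) passed as well. Centred in this way, 16.7% of genes were higher and 19.9% lower. The median log2 ratio of all genes was −0.18 in DP-like, −0.11 in DN-like, and −0.21 in both early post-selection-like and mature SP-like cells. Relative to that median, the ratio of *Arf6* in DP-like cells was 2.23.

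**Figure D1:**
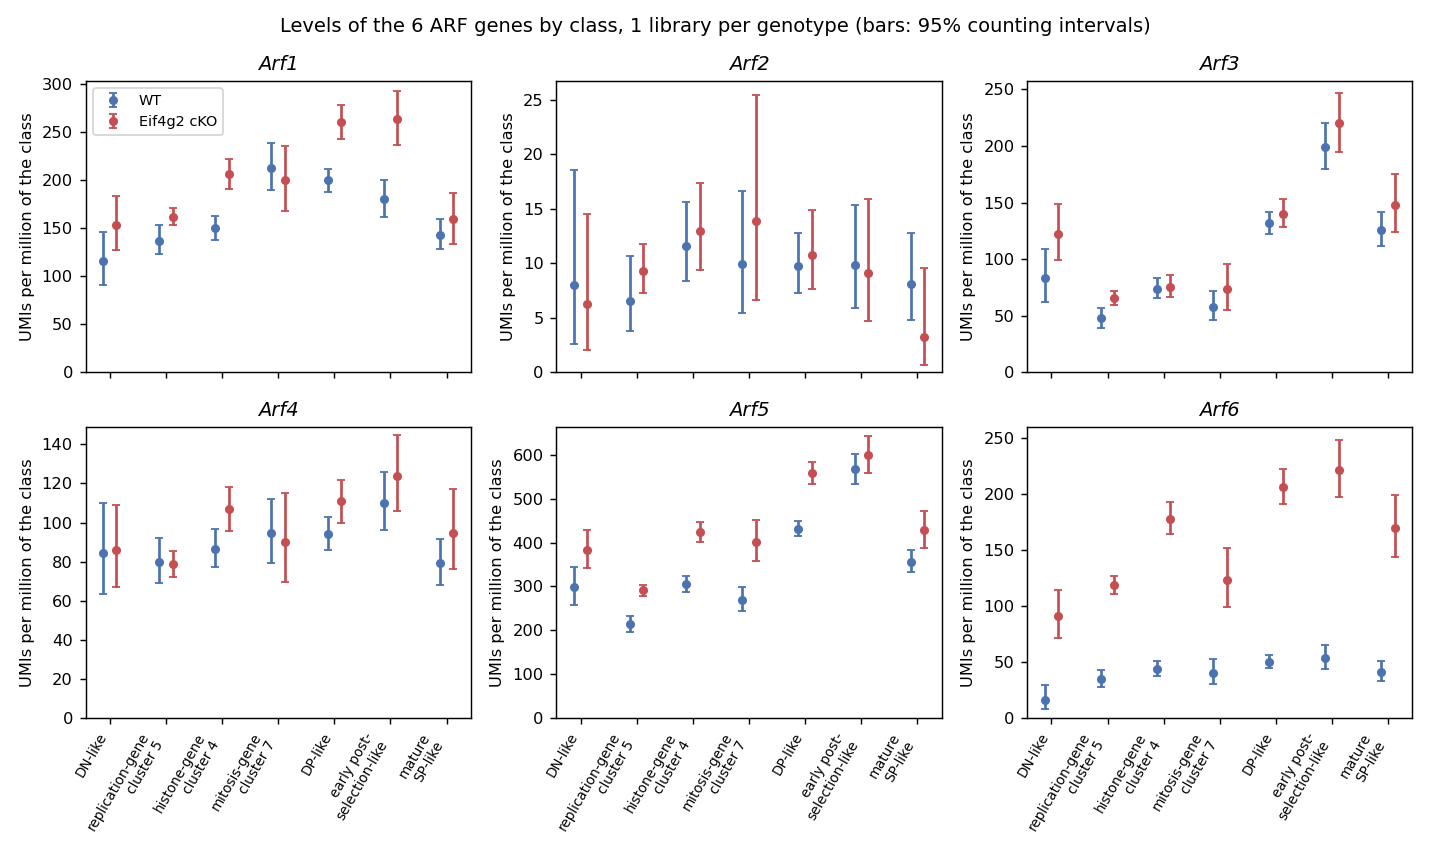
Level of each ARF gene (vertical axis, CPM of the class, linear from 0, a scale of its own in each panel) in 7 classes of T cells (horizontal axis) of the WT library (blue) and the *Eif4g2* cKO library (red). Points are the values of 1 library and bars exact 95% Poisson intervals. The red points of *Arf6* lie between 90.9 and 221 and the blue ones between 15.9 and 53.4, while in the other panels the colours lie nearer to each other.

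The DN-like cells showed the same direction. These cells normally precede the expression of *Cd4*. *Arf6* had 10 UMIs in 98 WT cells and 73 UMIs in 120 cKO cells, which were 15.9 (7.64 to 29.3) and 90.9 CPM (71.3 to 114). The log2 ratio was 2.51 (1.55 to 3.63), or 5.70-fold. It was the second highest of 3720 genes, after *Ifitm1* with 4.12. Over all genes of this class 9.17% were higher by over 0.5 and 26.3% lower, and of the 5 members with at least 50 UMIs *Arf3* and *Arf6* were higher. *Arf3* did not pass with each library clustered alone (0.48) or after thinning (0.15), and centring on the median put *Arf1* (0.51) past 0.5. The log2 ratio of *Arf6* in DN-like cells was above that in DP-like cells by 0.47, with an interval of −0.52 to 1.61, and a difference between the stages was not detectable at this depth. The DN-like value rested on few WT UMIs. When DN cells were instead picked by *Il2ra* UMIs without *Cd4*, *Cd8a* and *Cd8b1* UMIs (28 cells per library), the log2 ratio was 1.40, and the log2 odds ratio against *Arf1* to *Arf5* together was 0.81 in place of 2.16. The 8 DP markers together were at 1690 CPM in WT and 1220 CPM in cKO DN-like cells, against 10000 and 10100 CPM in DP-like cells, and none of the 8 was at 0. The 8 DN markers together were at 1580 CPM in WT and 1200 CPM in cKO DN-like cells. Single DN markers moved both ways, with *Notch3* at 317 and 93.4 CPM and *Hes1* at 134 and 283 CPM. The part of free RNA, of DP cells or of a different mix of DN cells in the DN-like level of *Arf6* was not tested.

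After selection the ratio was as large. In early post-selection-like cells *Arf6* had 103 UMIs in WT (53.4 CPM, 43.6 to 64.8) and 292 in cKO (221 CPM, 197 to 248). The log2 ratio was 2.05 (1.72 to 2.39), the highest of 6815 genes. In this class 7.76% of genes were higher by over 0.5 and 32.4% lower, and of the 5 members with at least 50 UMIs *Arf1* and *Arf6* were higher. That of *Arf1* did not pass at a resolution of 0.6 (0.48) or 1.6 (0.41) or with classes from marker UMIs (0.45). In mature SP-like cells *Arf6* had 92 UMIs in WT (41.3 CPM, 33.3 to 50.7) and 156 in cKO (170 CPM, 144 to 199). The log2 ratio was 2.04 (1.66 to 2.43), second of 6417 genes after *Alyref* with 2.23. Here 10.6% of genes were higher and 35.3% lower, and *Arf6* was the only 1 of 5 members past 0.5. The cells of this class were not alike in the 2 libraries. The 8 mature SP markers together were at 2880 CPM in WT and 1770 CPM in cKO. The 8 early post-selection markers together were at 1590 and 1820 CPM. The part of this shift in the ratio of *Arf6* was not tested. The ratio differed from that of DP-like cells by 0.01 (−0.38 to 0.41) in the early and by 0.00 (−0.44 to 0.44) in the mature class.

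In the cycling clusters the ratio of *Arf6* was 2.02 (1.76 to 2.28) with histone genes, 1.77 (1.45 to 2.11) with replication genes and 1.61 (1.12 to 2.12) with mitosis genes, all on the log2 scale. The shares of genes higher by over 0.5 were 6.28%, 6.27% and 7.94%, and those lower 32.4%, 26.5% and 17.6%. Past 0.5 were *Arf6* alone of 6 members in the first and in the second of these clusters, and *Arf5* and *Arf6* of 5 members in the third. With ratios centred on the median of all genes, *Arf1* (0.66), *Arf4* (0.51) and *Arf5* (0.68) also passed in the first, and *Arf2* (0.67), *Arf3* (0.63) and *Arf5* (0.62) in the second. Over all T cells *Arf6* had 789 and 2798 UMIs, 44.1 and 156 CPM, a log2 ratio of 1.82 (1.70 to 1.93), where 5.16% of 10533 genes were higher by over 0.5 and 41.2% lower. That value is below those of most single classes. The cells with replication genes, which had the lowest WT level but that of DN-like cells, made up more of the cKO library (665 of 4335 cells) than of the WT library (221 of 6012 cells).

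Cells that were not conventional thymocytes were too few for a firm value. In NKT or gamma delta T-like cells (55 WT and 15 cKO cells) *Arf6* had 12 UMIs in each library, 58.7 and 148 CPM, a log2 ratio of 1.33 (0.05 to 2.61). Of 685 genes 21.2% were higher by over 0.5 there and 17.7% lower. In antigen-presenting and myeloid-like cells (66 and 25 cells) it had 11 and 6 UMIs, a log2 ratio of 0.96 (−0.76 to 2.52), beside 19.7% of 748 genes higher and 21.7% lower. This class, outside the T lineage, gave an interval that holds both 0 and the value of all T cells. A difference was not detectable there at this depth. The 8 DP markers together were at 2440 CPM in the WT and 4900 CPM in the cKO cells of this class, and the part of RNA or cells of the T lineage in its *Arf6* level was not tested.

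The order of the 4 named stages and the 3 cycling clusters was the same in both libraries. In WT, *Arf6* was highest in early post-selection-like cells (53.4 CPM) and lowest in DN-like cells (15.9 CPM). Neighbours in the order did not differ beyond counting error except at its lower end, where the cluster with replication genes (35.0 CPM) was above the DN-like cells by 1.13 (0.18 to 2.24) on the log2 scale. In cKO the order again ran from early post-selection-like (221 CPM) over DP-like (206 CPM) to DN-like cells (90.9 CPM). There, 2 gaps between neighbours lay beyond counting error, that of DP-like over the cluster with histone genes (0.21, 0.05 to 0.37) and that of mature SP-like over the cluster with mitosis genes (0.46, 0.08 to 0.86). The antigen-presenting and myeloid-like cells were counted among the neighbours, with 52.7 CPM next to the early cells in WT and 103 CPM next to the DN-like cells in cKO. In cKO they lay between the cluster with replication genes (119 CPM, 111 to 127) and the DN-like cells (71.3 to 114). The gap between these 2 was therefore not computed in cKO. The level in DN-like over DP-like cells was −1.65 (−2.73 to −0.75) in WT and −1.18 (−1.55 to −0.83) in cKO on the log2 scale.

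The difference was in the share of cells with an *Arf6* UMI as well as in the sum. To compare cells at 1 depth, 1000 UMIs were drawn from each of them. None was left out, since no barcode held fewer. In DP-like cells, at median depths of 1406 and 1359 UMIs, 4.97% of WT (4.26% to 5.76%) and 18.9% of cKO cells (17.2% to 20.6%) then had an *Arf6* UMI, against 7.44% and 27.3% before thinning. At least 2 *Arf6* UMIs remained in 8 WT and 49 cKO cells. In DN-like cells (medians of 4926 and 5388.5 UMIs) none of the 98 WT cells kept an *Arf6* UMI, which allows a share of up to 3.06% (3 cells of 98; the exact upper bound is 3.69%), and 11 of 120 cKO cells did (9.17%, 4.67% to 15.8%). Before thinning 9.18% of WT and 44.2% of cKO DN-like cells had one. The antigen-presenting and myeloid-like cells gave 7.58% (2.51% to 16.8%) and 12.0% (2.55% to 31.2%). *Arf6* is broadly expressed, so that no class here should lack it and serve as a measure of free RNA. The 4 erythroid genes, of a cell type outside the T lineage, summed to 273 CPM in WT and 15.8 CPM in cKO DP-like cells, and the 10 antigen-presenting and myeloid markers to 68.5 and 22.6 CPM. In DN-like cells the sums were 234 and 97.1 CPM for the erythroid genes and 164 and 254 CPM for the other list. Their part in the ratio of *Arf6* was not tested.

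*Arf6* was higher in cKO within each of the 3 DP-like clusters, which hold different shares of the WT and the cKO cells. In cluster 0, the WT level of *Arf6* was 49.5 CPM and the cKO level 187 CPM, a log2 ratio of 1.92 (1.41 to 2.39). In cluster 1 it was at 47.9 and 210 CPM, a log2 ratio of 2.13 (1.28 to 3.14) from 11 WT UMIs. In cluster 3 it was at 51.7 and 158 CPM, a log2 ratio of 1.61 (0.80 to 2.34) from 19 cKO UMIs. By depth, DP-like cells of 1000 to 1500 UMIs had a log2 ratio of 2.12 (1.82 to 2.42), those of 1500 to 2500 UMIs 1.88 (1.53 to 2.23) and those above 2500 UMIs 2.28 (1.72 to 2.88).

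Of the class I members, *Arf1* and *Arf3* differed less than *Arf6*, and so did *Arf2* in DP-like cells. *Arf1*, the main ARF of COPI coat assembly at the Golgi, had 1064 UMIs in WT and 888 in cKO DP-like cells, 200 (188 to 212) and 260 CPM (243 to 278). The DP-like log2 ratio was 0.38 (0.25 to 0.51), the DN-like one 0.40 (−0.03 to 0.83), and it was 0.55 (0.33 to 0.77) in early post-selection-like and 0.16 (−0.14 to 0.44) in mature SP-like cells. The ratio of *Arf1* in mature less that in early cells was −0.39 (−0.76 to −0.03), but with a finer clustering (resolution 1.6) the ratios were 0.39 and 0.41. *Arf2* was the least counted member. It had 52 WT and 37 cKO UMIs in DP-like cells, a log2 ratio of 0.15 (−0.50 to 0.79), and 18 and 3 UMIs in mature SP-like cells, a log2 ratio of −1.31 (−3.71 to 0.47). A difference of *Arf2* was not detectable at this depth.

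*Arf3*, a close relative of *Arf1* that also acts at the Golgi, had 703 WT and 479 cKO UMIs in DP-like cells, 132 and 140 CPM. Its log2 ratio was 0.09 (−0.08 to 0.26) there, 0.14 (−0.08 to 0.37) in the early and 0.23 (−0.07 to 0.53) in the mature class, and each of these intervals holds 0. In DN-like cells *Arf3* had 52 and 98 UMIs and a ratio of 0.56 (0.06 to 1.07). Its ratio there was above that in DP-like cells by 0.47 (−0.06 to 1.01). *Arf3* also differed with stage within a library. In early post-selection-like cells its levels were 199 CPM (WT) and 220 CPM (cKO), above the DP-like level by 0.59 (0.41 to 0.78) and 0.65 (0.43 to 0.86) on the log2 scale. In the cluster with replication genes it was at 47.7 and 65.5 CPM, the lowest of the 7 classes in both libraries.

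The class II members were also little apart. *Arf4*, which acts in early secretory and ciliary traffic, had DP-like levels of 94.0 CPM (WT) and 111 CPM (cKO), a log2 ratio of 0.24 (0.04 to 0.43). The ratio in DN-like cells was 0.02 (−0.51 to 0.57), in the early class 0.17 (−0.13 to 0.47) and in the mature class 0.26 (−0.13 to 0.64). *Arf5* had the most UMIs of the family. Its DP-like level was 432 CPM (415 to 450) in WT and 558 CPM (534 to 584) in cKO, a log2 ratio of 0.37 (0.28 to 0.46). In early post-selection-like cells, where its WT level was already 567 CPM, the log2 ratio was 0.08 (−0.05 to 0.21), which less that of DP-like cells was −0.29 (−0.45 to −0.13). In WT, *Arf5* was higher in early post-selection-like than in DP-like cells by 0.39 (0.29 to 0.50) on the log2 scale, and in cKO by 0.10 (−0.02 to 0.22). With each library clustered alone the ratio in early cells was 0.29.

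**Figure D2:**
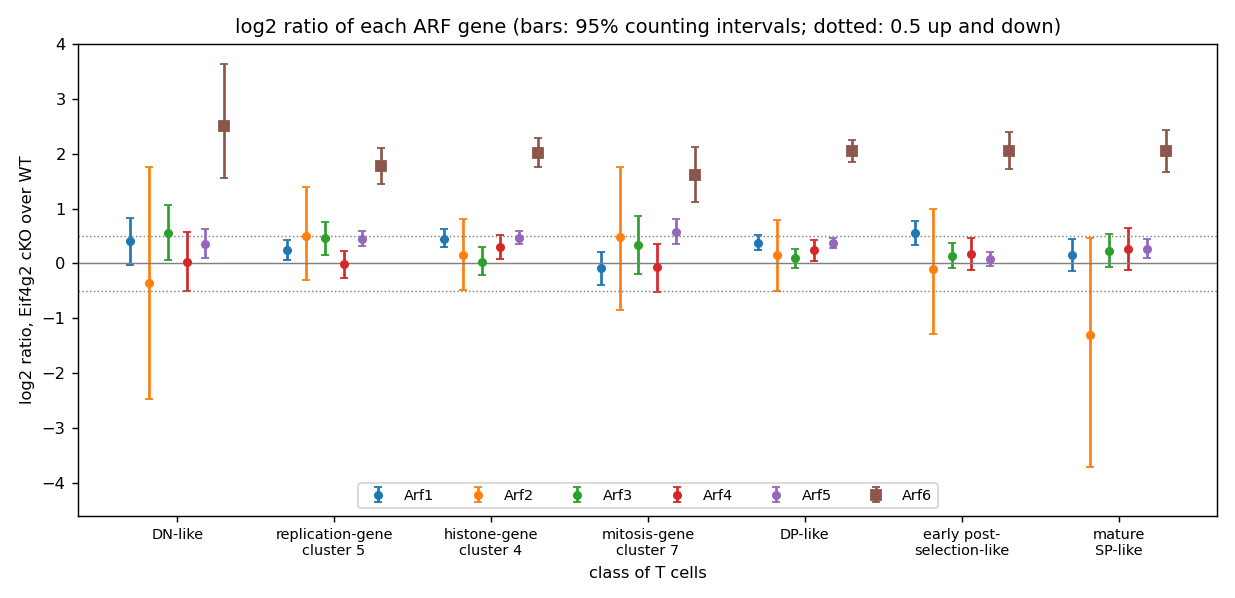
log2 ratio of *Eif4g2* cKO over WT (vertical axis) for the 6 ARF genes in 7 classes of T cells (horizontal axis), with exact 95% conditional binomial intervals as bars and dotted lines at 0.5 up and down. *Arf6* (squares) lies between 1.61 and 2.51 in all 7 classes, and the points of *Arf1*, *Arf3*, *Arf4* and *Arf5* lie between −0.09 and 0.58. Those of *Arf2*, which had the fewest UMIs, lie between −1.31 and 0.50.

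Set against its relatives within each library, which takes out the scaling by totals, *Arf6* was still apart. In DP-like cells it made up 5.46% of the UMIs of the 6 genes in WT and 16.0% in cKO. The odds ratio against *Arf1* to *Arf5* together was 1.72 (1.51 to 1.94) on the log2 scale, or 3.31-fold. Against each member alone it ran from 1.66 (1.41 to 1.91) for *Arf1* to 1.95 (1.68 to 2.22) for *Arf3*. In DN-like cells the share of *Arf6* was 2.63% in WT and 10.8% in cKO, a log2 odds ratio of 2.16 (1.18 to 3.30). The early and mature classes gave 1.86 (1.52 to 2.21) and 1.81 (1.41 to 2.22). In the cluster with mitosis genes the value was 1.34 (0.82 to 1.87), and that against *Arf2* alone, 1.12 (−0.26 to 2.56), held 0. The genes were chosen for the ratio of *Arf6* in these counts, so these values describe the choice and are no separate evidence.

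**Figure D3:**
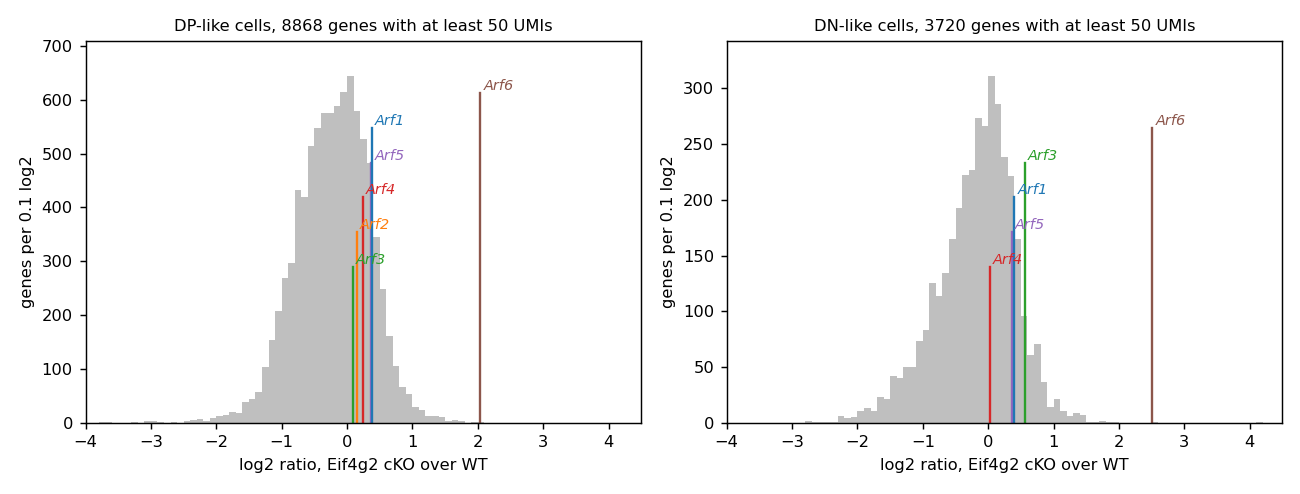
Number of genes (vertical axis, per 0.1 log2) by log2 ratio of *Eif4g2* cKO over WT (horizontal axis) in DP-like cells (left, 8868 genes) and DN-like cells (right, 3720 genes), with the ARF genes of at least 50 UMIs as coloured lines, whose height carries no value. *Arf6* lies at 2.04 and 2.51, right of all other genes in DP-like cells and of all but *Ifitm1* (4.12) in DN-like cells, and the other members lie inside the histograms.

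Few genes of the wider ARF pathway were higher in cKO in DP-like cells. The lists of regulators, coats, effectors and ARF-like GTPases held 98 genes, all of them in the files. In DP-like cells 81 had at least 50 UMIs, of which 1 was higher in cKO by over 0.5, 28 lower and 52 between, beside 8.34% higher and 29.8% lower over all genes. Their median log2 ratio was −0.30, against −0.18 over all genes. In the mature SP-like class 4 of 65 were higher and 34 lower (median −0.53), beside 10.6% and 35.3% of all genes. In the early class 4 of 65 were higher and 25 lower (median −0.33), beside 7.76% and 32.4%. In DN-like cells only 32 could be described, with 2 higher and 12 lower (median −0.35), beside 9.17% and 26.3%. In the clusters with histone, replication and mitosis genes 5 of 69, 5 of 73 and 3 of 50 were higher, beside 6.28%, 6.27% and 7.94%. The numbers lower there were 23, 21 and 9, beside 32.4%, 26.5% and 17.6%. The lists differed, and the ARF-like and SAR1 genes had a median above that of all genes in DP-like cells.

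Of the exchange factors, which load ARFs with GTP, 0 of 11 were higher and 4 lower in DP-like cells (median −0.42). Over all genes of these cells 8.34% were higher and 29.8% lower. *Gbf1*, the exchange factor of the early Golgi, had 494 WT and 159 cKO UMIs, a log2 ratio of −0.99 (−1.26 to −0.73). It was −1.62 in DN-like, −1.01 in early and −1.63 in mature cells. *Psd3*, a factor for *Arf6*, was at −0.93 (−1.47 to −0.42), *Arfgef2*, of the trans-Golgi and endosomes, at −0.85 (−1.24 to −0.47), and *Cyth1*, a cytohesin of leukocyte adhesion, at −0.71 (−0.95 to −0.47).

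Of the GTPase activating proteins, which end ARF signals, 1 of 17 was higher and 7 lower in DP-like cells (median −0.46). The shares over all genes there were 8.34% and 29.8%. *Acap2*, which acts on *Arf6*, had 406 WT and 122 cKO UMIs, a log2 ratio of −1.09 (−1.40 to −0.80). *Arap2*, which acts on *Arf6* at adhesions, was at −0.93 (−1.17 to −0.69), *Agfg2* at −0.91 (−1.03 to −0.79) and *Git2*, a scaffold of focal adhesions, at −0.91 (−1.05 to −0.76). *Smap1*, which acts on *Arf6* in clathrin-dependent endocytosis, was the only one of these higher by over 0.5, with 228 and 256 UMIs and a log2 ratio of 0.81. It was looked up after the counts of the list were seen.

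The COPI coat, which *Arf1* recruits to Golgi membranes, lay within the limit in DP-like cells, with 8 of 8 genes between and a median of −0.17. In other stages some passed it. In early cells 1 of 8 was higher and 2 lower, beside 7.76% and 32.4% of all genes. In mature cells 2 of 8 were lower, beside 35.3%, and in DN-like cells 1 of 5, beside 26.3%. *Arcn1*, the delta subunit, was the lowest in DP-like cells at −0.48 (−0.76 to −0.21) and stood at −0.73 in early cells. In DP-like cells *Copg2*, *Copb2* and *Copa* were at −0.30, −0.22 and −0.18. In these cells 8.34% of all genes were higher and 29.8% lower. Among the clathrin adaptors that ARFs recruit (AP-1, AP-3 and GGA), 0 of 16 were higher and 6 lower (median −0.44). The lowest were *Ap1s3* with 84 and 21 UMIs (−1.36, −2.12 to −0.65) and *Ap3m2* with 43 and 11 UMIs (−1.32, −2.43 to −0.34). *Ap3d1* and *Ap3s2*, further subunits of AP-3, were at −1.06 (−1.40 to −0.73) and −0.63.

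In DP-like cells, where 8.34% of all genes were higher and 29.8% lower, the other effectors were the list farthest below all genes. Of these effectors 0 of 11 were higher and 7 lower, with a median of −0.58. They also had the lowest median in DN-like cells (−0.58, from 3 genes). In early and mature cells the exchange factors had the lowest median, −0.66 and −0.80. *Rab11fip4*, which links Rab11 and ARFs in recycling, had 252 and 56 UMIs, a log2 ratio of −1.53 (−1.97 to −1.10). *Pip5k1b*, a kinase that makes the lipid PI(4,5)P2, was at −0.91 (−1.12 to −0.71), *Rab11fip3* at −0.87 (−1.46 to −0.31) and *Mapk8ip3*, a motor adaptor, at −0.85 (−1.20 to −0.52).

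The GTPases of the ARF-like family were nearer to the ARFs. In DP-like cells, where 8.34% of all genes were higher and 29.8% lower, 18 ARF-like and SAR1 genes were described. Of these 0 were higher, 4 lower and 14 between, with a median of 0.19. The 4 were *Arl15* (1441 and 415 UMIs; −1.15, −1.31 to −0.99), *Arl5b* (−1.08, −1.54 to −0.64), *Arl13b*, a gene of primary cilia (−0.78, −1.56 to −0.05), and *Arl5c* (−0.65, −0.72 to −0.57).

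**Figure D4:**
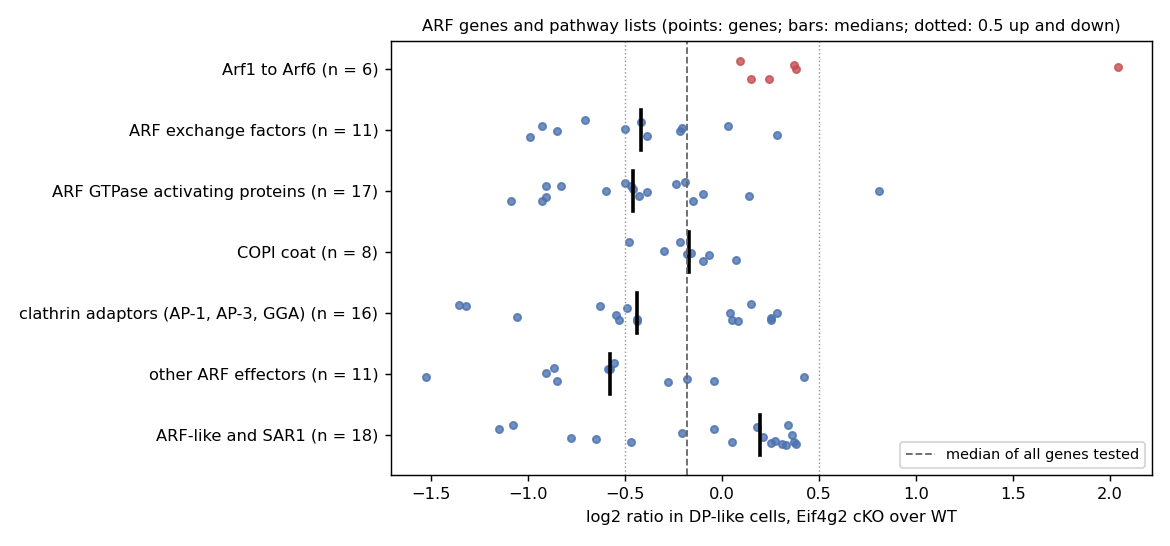
log2 ratio of *Eif4g2* cKO over WT in DP-like cells (horizontal axis) for the ARF genes (red) and for the 6 lists of the pathway (blue), 1 point per gene with at least 50 UMIs. Black bars are list medians and the dashed line is the median of all genes (−0.18). *Arf6* at 2.04 is right of every gene of the lists, of which *Smap1* at 0.81 is the next.

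The ratios moved with gene span over the whole table, and the members differ in span. In DP-like cells the median log2 ratio was 0.20 in 892 genes of up to 5 kb, 0.05 from 5 to 20 kb, −0.22 from 20 to 50 kb, −0.49 from 50 to 100 kb and −0.76 in 1040 genes above 100 kb. Of the genes up to 5 kb 20.5% were higher by over 0.5, and of those above 100 kb 0.962%. *Arf6* and *Arf5* (3043 bases) are in the shortest group, *Arf1* and *Arf2* in the second, and *Arf3* and *Arf4* in the third. All 6 members were above the median of their group in DP-like cells. Many of the named pathway genes with low ratios have long spans, such as *Gbf1* (134 kb), *Psd3* (523 kb) and *Arl15* (363 kb). The part of span in any of these ratios was not tested.

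The 3′ end of *Arf6* was set beside that of other genes in the same way. In DP-like cells 426 genes had a RefSeq end over 1000 bases past the GENCODE end. Their median log2 ratio was −0.38, against −0.18 over all genes. Of them 7.28% were higher by over 0.5 and 41.5% lower, beside 8.34% and 29.8% of all genes. Of 11 such genes with a span of up to 5 kb 1 was higher, *Arf6* itself, and the median was 0.02. Which part of the 3′ region of *Arf6* the UMIs came from cannot be read from counts per gene.

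In DP-like cells the genes around *Arf6* on chromosome 12 lay on both sides of 0, with more of them higher than among all genes. Of 23 genes of the files that start within 1 Mb, *Arf6* included, 15 others had at least 50 UMIs in DP-like cells, of which 5 were higher by over 0.5 and 4 lower, beside 8.34% and 29.8% of all genes. Their median was 0.29, against −0.18 over all genes. The nearest, *Nemf*, a gene of ribosome quality control 15.0 kb upstream, had 429 WT and 214 cKO UMIs and a log2 ratio of −0.36 (−0.60 to −0.12). *Klhdc2*, a ubiquitin ligase adaptor that also lies upstream, had 20 and 31 UMIs and a ratio of 1.28 (0.42 to 2.16). Its ratio was 0.23, 0.02 and 0.76 in the DN-like, early and mature classes. *Sav1*, a Hippo pathway scaffold, was at 1.17 (0.59 to 1.77). Its ratio was −0.26 in the early class and 1.28 (0.00 to 2.56) in the mature class, from 12 UMIs in each library. In DN-like cells it was 1.64 from 1 and 4 UMIs. *Dnaaf2* (0.86), *Klhdc1* (0.58) and the ribosomal protein gene *Rps29* (0.58) were also past 0.5 in DP-like cells. In the early and mature classes *Dnaaf2* was at −0.33 and 0.06, *Klhdc1* at 0.45 and −0.73, and *Rps29* at 0.47 and 0.32. *Cdkl1* (−1.22), *Map4k5* (−1.15), *Sos2* (−0.73) and *Pole2* (−0.53) were lower in DP-like cells. No neighbour reached the ratio of *Arf6* in that class.

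**Figure D5:**
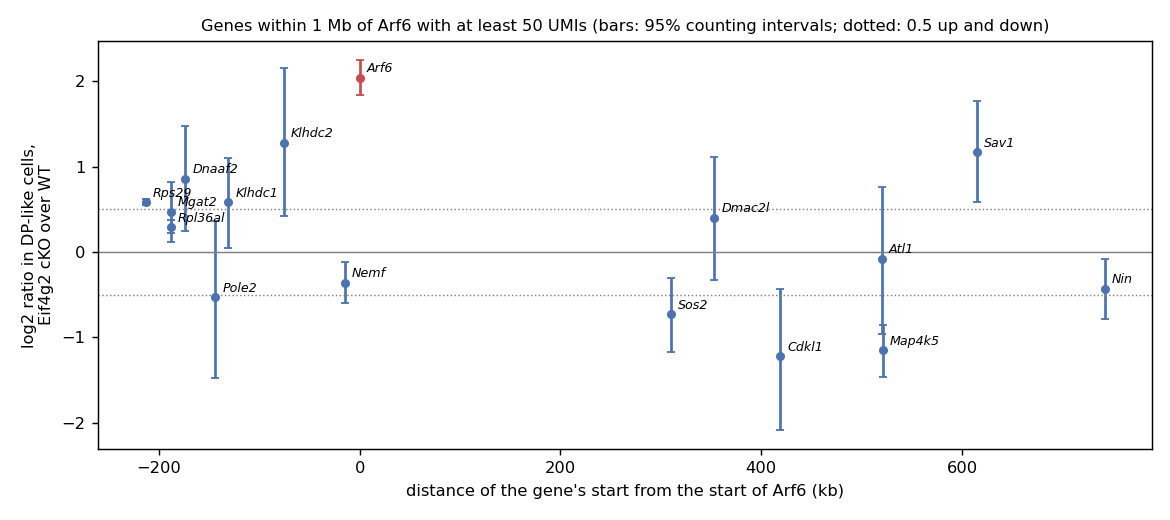
log2 ratio of *Eif4g2* cKO over WT in DP-like cells (vertical axis) of genes that start within 1 Mb of *Arf6*, by the distance of their start from that of *Arf6* in kb (horizontal axis). Points are genes with at least 50 UMIs, bars exact 95% intervals. *Arf6* (red, 2.04) lies above its 15 neighbours (blue), which lie between −1.22 and 1.28.

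The genes whose level most resembled that of *Arf6* were not its relatives. Over 16 points, 8 classes in 2 libraries, Pearson's r with *Arf6* on log2(CPM + 10) was taken for 8891 genes. The 5 highest were *Eif1*, a factor of start codon selection (0.947), *Pdcd7*, of the minor spliceosome (0.931), *Rac1*, a GTPase of actin protrusion (0.931), *Spcs1*, of the signal peptidase (0.929), and *Ppp2ca*, the catalytic subunit of protein phosphatase 2A (0.920). All 5 were higher in cKO in the 4 named thymocyte stages, *Eif1* by 0.58 to 1.19 on the log2 scale. Of the relatives, *Arf1* had an r of 0.684, *Arf5* 0.623, *Arf3* 0.371, *Arf4* 0.167 and *Arf2* 0.0344. The points share 2 libraries, so that r mainly reads the difference between the libraries.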

How the data were processed

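The authors processed the reads with dnbc4tools (version 2.1.3 in the series' design text, 3.0 in the file headers; genome build mm10 in the submitters' processing notes) and deposited UMI counts per gene and barcode, 1 table per library, without normalization. The labels also list an oligo library per mouse, whose values are not used here. Cells with at least 50 genes and at most 10% mitochondrial UMIs were kept (6012 WT, 4335 cKO; median 1732.5 and 2140 UMIs per barcode). Counts per 10000 were log-transformed, and 2000 variable genes, without the ARF genes, *Eif4g2* and the lists, gave 30 components, 20 neighbours and Leiden clusters (scanpy 1.11.5, resolution 1.0, seed 1), jointly without integration and again for T cells. A cluster was named "X-like" from at least 3 raised markers. Names are rebuilt and may differ from the study's. Doublets were not called. Leaving out cells above 2 times their class median is an alternative. UMIs were summed per class and library, with Poisson, conditional binomial (ratios, odds ratios) and Clopper-Pearson intervals at 95% (scipy 1.17.1). No test exists with 1 library per genotype. Genes that reached 50 UMIs when both libraries were added were described against 0.5 on the log2 scale. The floor for 0 UMIs was 3. UMIs are molecules, but cells of 1 mouse are not replicates. The ratio, its interval and the share past the limit were tried on simulated Poisson counts, the kind that the intervals assume. The clustering, the naming, the thinning, the odds ratios and the correlations were not simulated. The genes, lists and rules were chosen with earlier results of these data known: all 6 members, up to 4 genes per list with the largest ratio in DP-like cells, the 5 genes most like *Arf6* (at least 200 UMIs), and genes within 1 Mb. Values by DP-like cluster, depth, span and 3′ end were chosen after the data were seen. A further gene list, whose genes were left out of the clustering, is not reported here.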

Additional observations from a re-analysis of the deposited data

How the results depend on the processing

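No paired analysis was possible because each genotype has 1 library, and no replicate could be left out for the same reason. *Arf6* stayed higher in cKO by over 1 on the log2 scale in all 41 recomputed ratios, from 1.40 to 2.68, of which 37 lay within the interval of the reported value. The others were those of classes picked by marker UMIs, 1.40 in DN-like, 1.80 in DP-like and 2.51 in early cells, and 1.61 within DP-like cluster 3. Against *Arf1* to *Arf5* together, 26 of 30 values lay within the interval. Marker UMIs gave 0.81 in DN-like (28 cells per library) and 2.39 in early cells. Early cells of 1000 to 10000 UMIs with at most 3% mitochondrial UMIs gave 1.45 and thinning gave 1.46, against 1.86. The share of genes higher in DP-like cells went from 8.34% to 16.7% when ratios were centred on their median, and the share lower to 19.9%. At a limit of 1.0 the shares were 1.18% and 8.07%. Centring put *Arf1* (0.57) and *Arf5* (0.55) of DP-like cells past 0.5. The ratio of *Arf5* in early cells was 0.08 as reported and up to 0.29 in the alternatives. *Arf2* in mature cells reversed to 1.39 after thinning, at very few UMIs. Thinned DN-like cells gave no ratio of *Arf6*, with 0 WT UMIs, and a resolution of 0.6 gave no mature class. The causes were not tested. Depth limits *Arf2*, the DN-like class and the cells outside the T lineage.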
